A study of Mus musculus with 6 samples.

Results

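Saa3, Hp, Slpi and Lcn2 encode secreted proteins of the acute-phase response, and their RNA was followed in macrophages with and without cartilage fragments. They were taken by symbol as 4 of the 24394 genes in the data, with earlier results of the same comparison known. Their differences between the groups are therefore a description and carry no test. The cells were bone marrow-derived macrophages (BMMs) of wild-type C57BL/6 mice at postnatal day 28, grown from marrow monocytes for 7 days in macrophage colony-stimulating factor at 50 ng/ml. The 3 stimulated cultures received crushed femoral head cartilage of the same mice at 5 fragments per macrophage for 24 h, and the 3 control cultures received none. Nothing states that the cultures came from separate mice, so the spread between replicates may be technical. The comparison asks which transcripts of a macrophage respond to cartilage debris, the material shed into an osteoarthritic joint.

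The acute-phase response is the change in secreted proteins that follows infection or tissue injury. Interleukin-1, interleukin-6 and tumor necrosis factor start it, and the transcription factors C/EBP, NF-kB and STAT3 carry it to the genes. The liver makes most of these proteins for the blood, and macrophages make several of them where the injury is. Serum amyloid A3 (Saa3) is a lipid-binding protein that is produced mainly outside the liver, by macrophages and fat cells. Haptoglobin (Hp) binds free haemoglobin, and the complex is taken up through the macrophage receptor Cd163. Secretory leukocyte peptidase inhibitor (Slpi) blocks elastase and cathepsin G, the serine proteases that neutrophils release. Lipocalin 2 (Lcn2) withholds iron by capturing bacterial siderophores, and neutrophils store it in their granules.

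All 4 genes lie on the minus strand of the mouse genome mm10. Saa3 spans chr7:46711998-46715676, Hp chr8:109575128-109579172, Slpi chr2:164354070-164356507 and Lcn2 chr2:32384637-32387739. Each is listed as 1 reference transcript, of 531, 1345, 876 and 853 bases in that order. None of the 100-base stretches in the GENCODE transcripts of the 4 genes occurs in a transcript of another gene. A read that matched its whole length to one of them could not have come from an annotated relative such as Saa1.

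RefSeq promoter sequences of GRCm38.p6 matched 3 of the 4 genes, and those of Saa3 and Slpi are shown because both genes were several times higher with fragments. Capitals mark letters that match TTNNGNAA, a pattern of C/EBP factors, or TATANA, a pattern of the TATA box, on either strand. The stretches run 5′ to 3′ toward the gene, at chr7:46715701-46715926 for Saa3 and chr2:164356508-164356757 for Slpi. Both lie on the minus strand, outside every annotated exon.
Saa3: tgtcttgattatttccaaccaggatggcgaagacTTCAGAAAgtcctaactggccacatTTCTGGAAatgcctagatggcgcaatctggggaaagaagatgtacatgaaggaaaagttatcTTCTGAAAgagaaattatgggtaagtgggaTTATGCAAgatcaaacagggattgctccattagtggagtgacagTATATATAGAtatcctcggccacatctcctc
Slpi: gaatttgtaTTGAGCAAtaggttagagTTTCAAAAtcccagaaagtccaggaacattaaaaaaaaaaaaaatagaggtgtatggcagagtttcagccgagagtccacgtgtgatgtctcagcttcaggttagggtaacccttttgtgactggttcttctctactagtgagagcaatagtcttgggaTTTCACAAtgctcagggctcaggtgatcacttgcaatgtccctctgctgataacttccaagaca

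In the 250 bases before its start the Saa3 promoter held 4 matches to the C/EBP pattern. Among 32851 promoters 36.8% held at least 1 match and 0.591% held 4 or more. The Slpi promoter held 3 matches, which 2.61% of promoters reached or passed, and the Lcn2 promoter held 1. The TATA pattern was found 3 times in Saa3, in 1 overlapping run, and in neither of the other promoters, while 22.6% of all promoters held it. No C/EBP match overlapped a TATA match. The patterns TTCNNNGAA of STAT factors, TGANTCA of AP-1 and the consensus of NF-kB were absent from all 3 windows. They occurred in 7.02%, 6.75% and 3.9% of all promoters. A match of letters is not a binding site, and factor binding was not measured in these data.

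Saa3 was the most abundant of the 4 genes in every library. Levels are given as FPKM, fragments scaled to transcript length and to the depth of the library, so they can be compared between genes. Control replicates 1 to 3 held 433, 454 and 349 FPKM of Saa3, and the stimulated replicates held 3653, 3796 and 2935 FPKM. The lowest stimulated culture was 6.46 times the highest control. The mean was 412 ± 55.7 FPKM in controls and 3462 ± 461 FPKM with fragments (SD, n = 3), a ratio of 8.40. On the scale of log2(FPKM + 0.1) the fitted difference was 3.07 (SE 0.12), the 55th largest among 10399 genes tested by that measure. That ranking takes in weakly expressed genes, with 836 of the 10399 at 0 in at least 1 library.

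These Saa3 values rested on the largest number of fragments among the 4 genes. As estimated from the listed coverage, a library held 699237 to 776371 fragments in all. The study's methods name a far larger number of reads per sample, and the counting errors given here rest on the estimate. Of the estimated fragments, 108, 108 and 83 fragments fell on Saa3 in the controls and 865, 864 and 648 in the stimulated cultures. Saa3 stood at places 173, 168 and 214 among all genes by FPKM in the controls. With fragments of cartilage it stood at places 11, 9 and 12. In control replicate 1 the named transcript carried 296 FPKM and an unnamed transcript, assembled in that library over nearly the same span, carried 138 FPKM. Both are joined in the values above. With the named line alone the control mean was 366 ± 80.6 FPKM (n = 3) and the ratio 9.45.

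Haptoglobin was the gene with the second largest difference. Hp held 27.4, 28.2 and 15.5 FPKM in control replicates 1 to 3 and 162, 172 and 122 FPKM in the stimulated replicates. The groups did not overlap, and replicate 3 was the lowest of both. Means were 23.7 ± 7.12 and 152 ± 26.6 FPKM (SD, n = 3), a ratio of 6.42. The fitted log2 difference was 2.71 (SE 0.25). The controls held 24, 24 and 13 fragments of Hp, so counting error alone gave their level a coefficient of variation of 22.1%, against 30.1% observed. The stimulated cultures held 138, 141 and 96 fragments.

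For the protease inhibitor Slpi, control replicates 1 to 3 held 25.2, 36.1 and 22.2 FPKM and the stimulated replicates 119, 105 and 123 FPKM. Every stimulated culture was at least 2.91 times the highest control. The mean was 27.8 ± 7.30 FPKM in controls and 116 ± 9.55 FPKM with fragments (SD, n = 3), a ratio of 4.15 and a fitted log2 difference of 2.08 (SE 0.19). The 11 to 18 fragments of a control and 50 to 59 of a stimulated culture gave a spread no larger than counting error in both groups. Variances of the estimated fragments were 0.92 and 0.377 times those of counting alone.

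Lcn2 differed least. Its levels were 36.1, 35.3 and 48.2 FPKM in control replicates 1 to 3 and 52.1, 54.3 and 62.7 FPKM in the stimulated replicates. The groups came close to each other, with the lowest stimulated culture 1.08 times the highest control. Means were 39.9 ± 7.20 and 56.4 ± 5.55 FPKM (SD, n = 3), a ratio of 1.41, and the fitted log2 difference was 0.51 (SE 0.16). In fragments this was 17 to 23 in a control and 25 to 28 in a stimulated culture, where counting error alone gives a coefficient of variation of 22.7% and 19.6%. Of the tested genes, weakly expressed ones included, 1197 had a larger rise on the log2 scale.

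**Figure D1:**
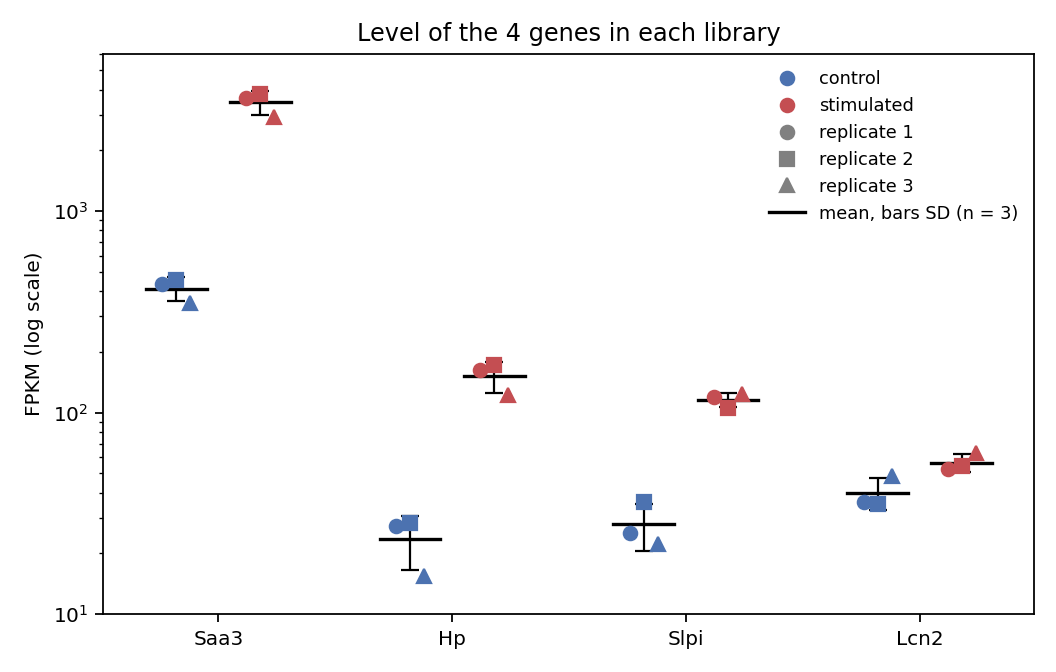
FPKM of Saa3, Hp, Slpi and Lcn2 on a log axis in each of the 3 control and 3 stimulated libraries, with bars for the mean and the SD (n = 3). The groups are far apart for Saa3, Hp and Slpi and nearly touch for Lcn2, where the highest control was 48.2 FPKM and the lowest stimulated culture 52.1 FPKM.

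In all 4 genes the stimulated cultures lay above the controls without overlap, as they did in 9.03% of all tested genes, and 6.87% lay below. With limma 3 of the 4, Saa3, Hp and Slpi, passed an adjusted p of 0.05 as higher, beside 0.317% of all tested genes. Because the genes had been chosen from this contrast, nothing is read from either count. In bulk cultures, more cells that express a gene and more RNA of that gene per cell cannot be told apart.

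The order of the genes within a library changed between the groups. Behind Saa3, Lcn2 had the highest level in control replicates 1 and 3 and Slpi in control replicate 2. The control ranges of Lcn2 and Slpi overlapped, as did those of Slpi and Hp, so these neighbours did not differ beyond their spread. With fragments Hp came after Saa3 in replicates 1 and 2 and Slpi did in replicate 3, again with overlapping ranges. Lcn2 had the lowest level of the 4 in every stimulated culture, and its range did not reach that of Slpi.

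Together the 4 genes held 435 to 554 FPKM in the controls and 3243 to 4128 FPKM in the stimulated cultures. Saa3 made up 80.2% to 83.0% of that sum in the controls and 90.5% to 92.0% with fragments. Without Saa3 the other 3 genes summed to 85.9 to 99.6 FPKM and to 308 to 333 FPKM. As a share of the FPKM of a whole library, the 4 genes went from 0.0729% to 0.0908% in the controls to 0.52% to 0.655% in the stimulated cultures.

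Within a group the genes shared their high and low libraries in part. Saa3 and Hp had the same order in both groups, with replicate 2 highest and replicate 3 lowest. Slpi followed that order at both ends in the controls but was highest in replicate 3 of the stimulated cultures. Lcn2 was highest in replicate 3 of both groups. For Saa3 in the stimulated cultures the variance was 13.3 times that of counting, and for Hp 3.69 times. The stimulated replicates of these 2 genes thus differed by more than the number of fragments accounts for. In the controls the variance was 1.64 times that of counting for Saa3 and 1.80 times for Hp.

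**Figure D2:**
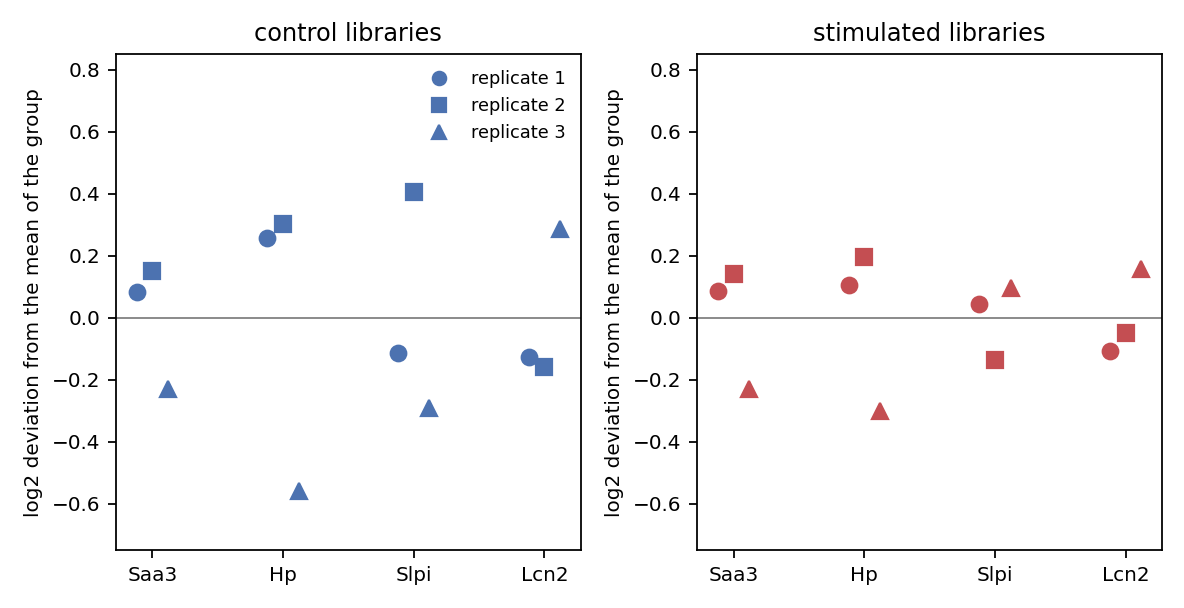
Deviation of each library from the mean of its group, on the log2 scale, for the 4 genes in control and stimulated cultures, with 1 symbol per replicate number. In both groups replicate 3 lies lowest for Saa3 and Hp and highest for Lcn2, while for Slpi it is lowest among controls and highest among stimulated cultures.

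The profile over the 6 libraries was compared between genes as a root mean square distance of log2 values, each centred on the mean of the gene. Saa3 and Hp lay 0.247 apart, Hp and Slpi 0.427, and Saa3 and Slpi 0.543. Lcn2 lay 0.854 from Slpi, 1.20 from Hp and 1.32 from Saa3, in the order of the size of their rises. The 5 tested genes most like Saa3 were Fpr2 at 0.117, Irg1 at 0.246, Hp, Ptges at 0.252 and Il1b at 0.300. Fpr2 is a formyl peptide receptor that also binds serum amyloid A. Around Hp stood Fpr2 at 0.224, Saa3, Clec4e at 0.261, Il1b at 0.346 and Pilra at 0.357. Slpi was nearest to Pilra at 0.227, Gm5424 at 0.287, Clec4e at 0.302, Il1b at 0.344 and Papss2 at 0.349. Lcn2 had Neat1 at 0.056, Trp53 at 0.086, Rgag4 at 0.088, Peak1 at 0.088 and Mnda at 0.089. All 4 genes share the same libraries, so these distances largely repeat the size of the change between the groups.

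Saa3 was the only serum amyloid A gene with a value. Saa1, Saa2 and Saa4, the forms made mainly in liver, were listed at 0 in all 6 libraries. Of 35 other acute-phase genes 23 were listed at 0 in every library and 8 were tested, of which 2 rose and 0 fell, against 0.317% and 0.0769% of all tested genes. Their median log2 difference was 0.83, beside 0.00 over all tested genes. The complement factor Cfb rose from 2.26 ± 0.754 to 34.7 ± 7.58 FPKM (log2 difference 3.90, limma adjusted p = 0.0013), and with its largest transcript line alone the difference was 2.02 (0.827). The Cfb range was 2.5e-27 to 0.827 over all alternatives. The central complement component C3 rose from 37.8 ± 5.84 to 95.7 ± 13.4 FPKM (1.34, limma adjusted p = 0.018). Its call was lost without control replicate 1 (limma adjusted p = 0.056), stimulated replicate 1 (0.132) or stimulated replicate 2 (0.101), in a range from 5.8e-13 to 0.172 over all alternatives. The metallothionein Mt2 (1.74) and the interleukin-1 receptor antagonist Il1rn (1.20) had no overlap between groups but did not pass, with limma adjusted p of 0.163 and 0.129.

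**Figure D3:**
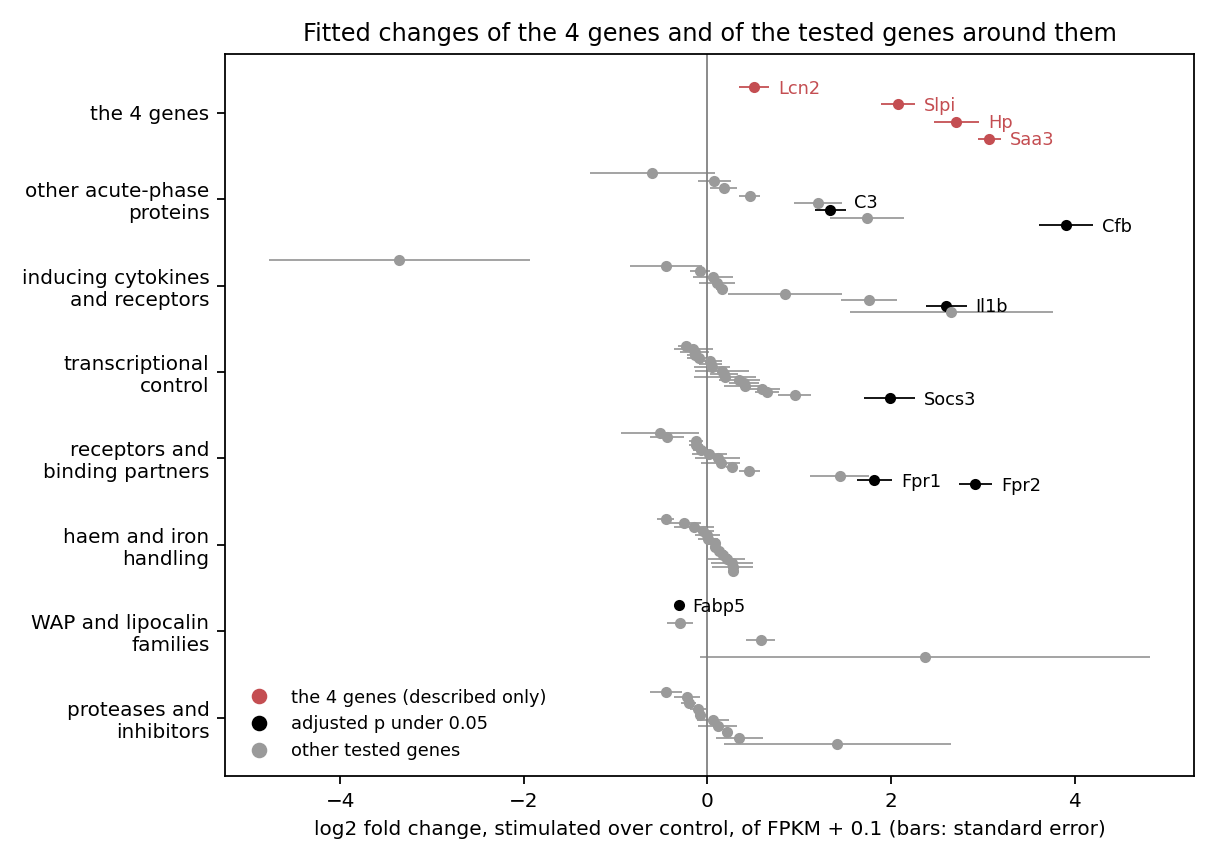
Fitted log2 difference, stimulated over control, of the 4 genes and of the tested genes in the 7 lists around them, with bars for the standard error. Saa3 at 3.07, Hp at 2.71 and Slpi at 2.08 lie at the high end with Cfb, Fpr2, Il1b and Socs3, which passed the threshold, and with Il1a and Wfdc21, which did not and have wide bars. Lcn2 lies at 0.51.

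Of the cytokines that induce acute-phase genes, and their receptors, 1 of 10 tested genes rose and 0 fell, with a median log2 difference of 0.13. The gene was Il1b, from 2.38 ± 0.0534 to 14.96 ± 0.544 FPKM (2.60, limma adjusted p = 0.0024). The control level of Il1b lay far below those of Hp and Slpi, which rested on 11 to 24 fragments in a library. At so low a level the small SD does not measure precision. The Il1b call was kept under all alternatives. The paper, which used another test, reported no upregulation of IL-1β. Tnf went from 13.2 ± 0.781 to 47.8 ± 18.9 FPKM without overlap (1.76, limma adjusted p = 0.075), and Il6 was listed at 0 in all 6 libraries. By its own test the paper listed Tnf as upregulated, and it found Tnf higher by qRT-PCR. The largest differences of the list that did not pass were those of Il11 at -3.36 (SE 1.42), with overlap, and Il1a at 2.66 (SE 1.10), without, with means of 0.285 to 3.38 FPKM in a group (limma adjusted p = 0.526 and 0.52). Of 18 tested genes of transcriptional control 1 rose, the cytokine feedback inhibitor Socs3 (1.98, limma adjusted p = 0.03), and 0 fell, with a median of 0.17. The Socs3 call did not hold without control replicate 1 or 2 or without any 1 of the stimulated replicates, where the limma adjusted p was 0.086 to 0.189. It ranged from 4.3e-06 to 0.189 over all alternatives. Of the 18, 5 lay above and 2 below without overlap, against 9.03% and 6.87% of all tested genes. Among those above were the NF-kB family genes Bcl3 (0.95, limma adjusted p = 0.097), Nfkb2 (0.65, 0.117) and Relb (0.40, 0.52), and below was Cebpa (-0.23, 0.477). Bcl3 was among the genes that the paper listed as upregulated. Among direct regulators of acute-phase genes the groups overlapped for Stat3 (-0.14), Cebpb (-0.09), Cebpd (-0.15) and Nfkbiz (0.19).

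Among receptors and binding partners of the 4 proteins 2 of 13 tested genes rose and 0 fell, with a median of 0.11. Fpr2 rose from 17.5 ± 3.07 to 133 ± 21.6 FPKM (2.92, limma adjusted p = 0.00039) and its relative Fpr1 from 40.0 ± 5.70 to 143 ± 33.8 FPKM (1.82, limma adjusted p = 0.0082). The Fpr1 call was lost without stimulated replicate 1 (limma adjusted p = 0.074), in a range from 1e-29 to 0.742 over all alternatives. With reference transcripts alone the Fpr2 difference was 1.94 (limma adjusted p = 0.087), within 2.9e-56 to 0.087 over all alternatives. The Toll-like receptors that serum amyloid A can engage did not pass, with 0.46 for Tlr2 and -0.44 for Tlr4 (limma adjusted p = 0.186 and 0.521). Neither overlapped between groups, with Tlr2 above and Tlr4 below the controls. The paper, with its own test, listed Tlr2 as upregulated and Tlr4 as downregulated, and found Tlr2 higher by qRT-PCR. For Hp, its receptor Cd163 was at 0 in control replicates 1 and 3 and stimulated replicate 3 and reached 1.66 FPKM at most. For Lcn2, its receptor Slc22a17 was at 0 in 3 of 6 libraries and reached 1.30 FPKM at most. The matrix metalloproteinase Mmp9, with which the Lcn2 protein forms a complex, went from 9.93 ± 4.64 to 25.6 ± 4.60 FPKM (1.44, limma adjusted p = 0.148). By the paper's own test Mmp9 was upregulated.

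Among the genes listed here as near in function to Hp, Lcn2 and Slpi, only Fabp5 passed the threshold. Over all tested genes 0.317% rose and 0.0769% fell, and 969 of 10399 had an unadjusted limma p under 0.05. In haem and iron handling 0 of 14 tested genes passed limma in either direction (4 at an unadjusted p under 0.05, median 0.09), and Hmox1, which degrades haem, had 0.09. The transferrin receptor Tfrc had the largest difference of that list, at -0.46 (limma adjusted p = 0.117). Among relatives of Slpi and Lcn2, the whey acidic protein and lipocalin families with fatty acid-binding proteins, 14 of 18 genes were at 0 throughout. Of the 4 tested 0 rose and 1 fell (median 0.14), the fatty acid-binding protein Fabp5 (-0.31, limma adjusted p = 0.035). That call was lost when any 1 library was left out, with a limma adjusted p of 0.056 to 0.22, in a range from 3.1e-06 to 0.596 over all alternatives. Wfdc17, a macrophage relative of Slpi, went from 215 ± 40.8 to 321 ± 56.4 FPKM (0.58, limma adjusted p = 0.261), and Wfdc21 was at 0 in 3 libraries, of both groups, and at 11.1 to 12.5 FPKM in the others (2.37, SE 2.45). By its own test the paper listed Wfdc17 as upregulated and Tfrc as downregulated. Of the proteases that Slpi inhibits, Ctsg was at 0 in all libraries and Elane in 5 of 6. The list of neutrophil proteases and protease inhibitors had 0 of 10 tested genes past the limma threshold in either direction, 3 at an unadjusted p under 0.05, and a median of -0.01. Its largest difference was that of Serpinb1a, at 1.42 (SE 1.24, limma adjusted p = 0.771).

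Macrophage markers were abundant in all 6 libraries, with Csf1r at 565 to 670 FPKM and Cd68 at 1089 to 1281 FPKM. The 9 of them summed to 39513 to 60592 FPKM in the controls and 40792 to 54688 FPKM with fragments (exact two-sided permutation p = 0.8). That sum was mostly Lyz2, at 36738 to 57950 FPKM in the controls and 37666 to 51721 FPKM with fragments. The mean of log2 values over the 9 was higher by 0.14 (exact two-sided permutation p = 0.1, the smallest possible here). Of the 9, 1 passed limma, Adgre1 (0.59, limma adjusted p = 0.0082). That call was lost without stimulated replicate 1 (limma adjusted p = 0.073) or 2 (0.051), in a range from 1.5e-11 to 0.762 over all alternatives. Neutrophils also express Lcn2, Slpi and Hp, and 16 neutrophil markers summed to 1011 to 1098 FPKM in the controls and 888 to 1268 FPKM with fragments (exact two-sided permutation p = 1.0). The mean of log2 values over the list differed by -0.48 (exact two-sided permutation p = 0.3). Of the 11 tested 0 passed limma and 1 had an unadjusted p under 0.05, Mmp8 (-0.34, limma adjusted p = 0.405), which was lower with fragments without overlap. Ctsg was at 0 throughout, while S100a8 held 250 to 454 FPKM and S100a9 329 to 502 FPKM over the libraries. Liver also makes Hp, and all 8 liver markers, Alb among them, were at 0 in every library, as were all 7 red cell markers. Of 17 cartilage cell markers 11 were at 0, and the list summed to 2.40 to 5.21 FPKM in the controls and 1.44 to 3.35 FPKM with fragments (exact two-sided permutation p = 0.6). The sum of 10 fibroblast and bone cell markers moved with the groups, from 202 to 218 FPKM to 126 to 147 FPKM (exact two-sided permutation p = 0.1, the smallest that 3 against 3 allows). Of the 5 tested, 3 lay below the controls without overlap, 1 was higher on average, and 1 fell, Postn (-0.999, limma adjusted p = 0.049), while Bglap was at 0 in all libraries. Postn lost its call when any library but stimulated replicate 3 was left out (limma adjusted p = 0.121 to 0.221), in a range from 6.7e-06 to 0.824 over all alternatives. Their part in the differences of the 4 genes was not tested.

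The comparison was repeated in 20 other ways, 6 of them with 1 library left out. In 5 of these for Saa3 and 7 for each of the others the fitted difference was identical, as for a changed filter or variance estimate, which can move only the test. Over all of them the log2 difference lay between 2.96 and 3.25 for Saa3, between 2.43 and 2.86 for Hp, between 1.93 and 2.28 for Slpi and between 0.43 and 0.65 for Lcn2. These ranges do not overlap between the genes. Saa3 passed the threshold in 20 of them, Slpi in 19, Hp in 18 and Lcn2 in 0. Over all tested genes, 12 to 210 were higher in these settings. The 4 genes were chosen from this contrast and all settings draw on the same 6 libraries, so these counts carry no test. Hp and Slpi did not pass where the variances were moderated without a trend, and Hp did not where only the largest transcript line of a gene was used. In 5 of the 6 libraries, 142 to 160 of the transcripts with a value have an FPKM outside the interval listed beside it. The Saa3 FPKM lay above its interval in 4 libraries, and with the midpoint of the interval in place of the FPKM its log2 difference was 3.01 (SE 0.31).

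**Figure D4:**
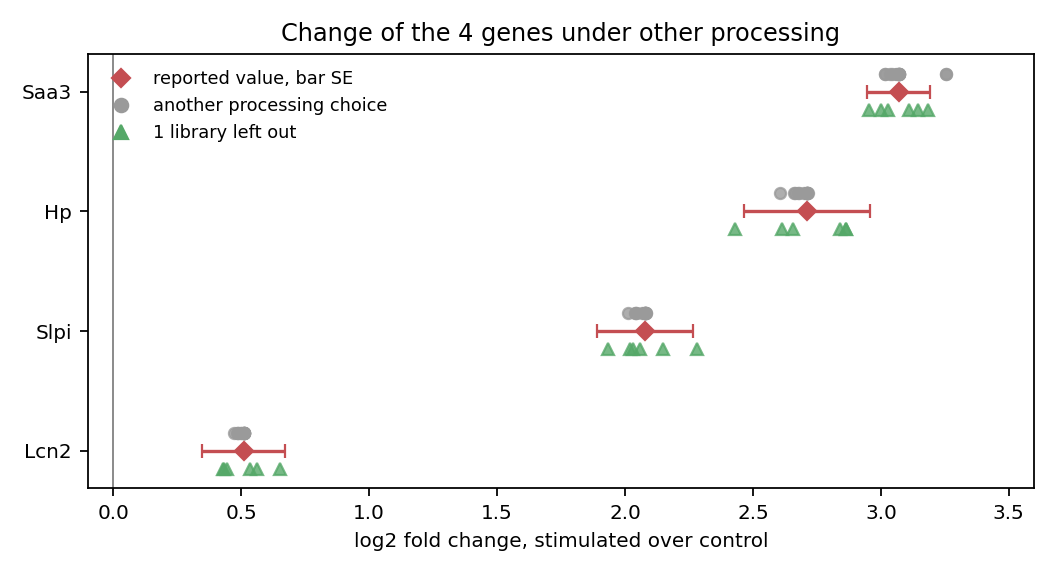
Log2 difference of each of the 4 genes as reported (diamond, bar for the SE), under other processing choices (circles) and with 1 library left out (triangles). The genes keep their order, with Saa3 between 2.96 and 3.25 and Lcn2 between 0.43 and 0.65.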

How the data were processed

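RNA-seq of 6 macrophage cultures was used, 3 per group as the labels give them. The authors aligned paired-end 100-bp reads of TruSeq Stranded mRNA libraries against mm10 (TopHat, with Bowtie) and quantified every library by Cufflinks. Versions are not given in the sources used here. The deposited FPKM are Cufflinks values per transcript, for reference transcripts and for those assembled in that library. Whether the TMM scaling named in the methods had been applied could not be told from them. The deposited coverage is the mean read depth per transcript. The interval deposited beside each FPKM served only as an alternative.

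FPKM were summed per symbol, with assembled transcripts joined to the named gene of the same locus. Starts were raised by 1 base. Fragments were estimated as coverage times the transcript length less 210 to 217 bases, divided by the read length. These 210 to 217 bases were chosen in each library so that small values fell near whole numbers, on transcripts longer than that of Saa3. Of their values up to 8 fragments 94.5% to 95.3% then lay within 0.1 of a whole number, which is no independent check. Libraries held 699237 to 776371 fragments, which limits the precision of weakly expressed genes to counting error.

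The 10399 genes that averaged 1 FPKM or more were fitted on log2(FPKM + 0.1) by limma 3.58.1 under R 4.3.3 (lmFit, then eBayes, trend and robust on). Tests were two-sided, p was adjusted by Benjamini-Hochberg at a limit of 0.05, and the procedure was tested on simulated data. Marker sums were compared with exact permutation tests in Python. Figures and tables used Python 3.11.15 with pandas 2.3.3, numpy 2.4.6 and matplotlib 3.10.9. The 4 genes, the lists and the naming rule were set with earlier results of these data known. Named from each list were genes past the threshold, genes with a direct role around the 4 proteins, and up to 4 further tested genes with the largest differences. Alternatives changed the pseudocount, filter, scaling, variance moderation, transcript lines, unit and replicate block or left out 1 library. The midpoint of the listed interval was added after the data were seen.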

Additional observations from a re-analysis of the deposited data

How the results depend on the processing

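The log2 differences of Saa3, Hp, Slpi and Lcn2 kept their direction under all 20 alternatives and moved by less than the spread between replicates, with identical values in 5 of them for Saa3 and 7 for each of the others. Counts of genes moved more. With 1 library left out, 12 to 26 genes were higher and 0 to 6 lower over all tested genes, against 33 and 8. The fewest, 12 and 0, came without stimulated replicate 1, and without stimulated replicate 2 it was 16 and 5. Without control replicates 1, 2 and 3 there were 4, 4 and 3 lower genes. Of the lists, 1 to 2 other acute-phase genes, 1 to 2 inducing cytokines, 0 to 1 genes of transcriptional control and 1 to 2 receptors were then higher, and 0 whey acidic protein and lipocalin family genes lower.

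With no filter on low values 210 genes were higher and 116 lower, with 4 higher among other acute-phase genes, 3 higher and 1 lower among inducing cytokines, 3 higher in transcriptional control, 4 higher among receptors, 2 higher and 1 lower in haem and iron handling, 1 higher among whey acidic protein and lipocalin families and 1 higher among proteases and inhibitors. With scaled fragments 179 were higher and 101 lower, with 3 higher inducing cytokines, 4 higher in transcriptional control, 5 higher and 1 lower among receptors and 1 higher and 1 lower in haem and iron handling. Without trend and robust moderation 14 were higher and 5 lower, with 1 other acute-phase gene, 0 of transcriptional control, 1 receptor and 0 lower whey acidic protein and lipocalin family genes. Reference transcripts alone gave 15 and 4, with 1 acute-phase gene, and the largest transcript line 13 and 3, with 0 acute-phase genes. Both gave 0 in transcriptional control, 0 receptors and 0 lower family genes. Lines with status OK gave 1 receptor. Quantile normalization and the midpoint of the interval each gave 5 lower genes, and the midpoint 0 lower family genes. The causes of these shifts were not tested.

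Deviations of same-numbered libraries correlated at -0.122, -0.007 and -0.146 over 3424 genes, which cannot show whether the replicate numbers pair the cultures. With the replicate number as a block 17 genes were higher and 1 lower, 0 in transcriptional control higher and 0 family genes lower. The SE was then 0.04 for Saa3, 0.14 for Hp, 0.20 for Slpi and 0.14 for Lcn2. Without the block it was 0.12, 0.25, 0.19 and 0.16 in that order. The block cannot move the Saa3 difference of 3.07. The summed macrophage markers were lower with fragments by a log2 ratio of -0.11, and the mean of their log2 values was higher by 0.14. Depth limits Slpi and Hp in the controls, at 11 to 24 fragments in a library, and Lcn2 in both groups, at 17 to 28.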
